A study of Mus musculus with 16 samples.

Results

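Chemokine ligands and receptors were examined in the gastrocnemius, a muscle of the calf, of normal and tumor-bearing mice. A gene was taken as a member when its symbol followed the Ccl, Cxcl, Ccr, or Cxcr pattern with a number, began with Cx3c, or was Xcl1 or Xcr1, and 56 of the 21923 genes measured met this rule. They comprised 38 ligands and 18 receptors, and the rule itself uses no expression value. Gastrocnemius mRNA of 16 mice aged 6 to 8 weeks at purchase was sequenced, with 1 library per mouse and 4 mice per group. NOR mice received PBS instead of tumor cells, CAC mice carried subcutaneous tumors and received PBS, AM mice carried the same tumors and received amiloride at 2 mg/kg daily from day 9, and the tumor cells given to KD mice had Rab27 knocked down by shRNA, followed by PBS. Muscle was collected on day 30 from every mouse. Replicates 1 and 2 of a group were labelled C57BL/6, the hosts of LLC lung carcinoma cells, and replicates 3 and 4 were labelled BALB/c, the hosts of CT26 colon carcinoma cells, so strain and tumor line cannot be told apart. The Rab27 knockdown was in the tumor cells, and these muscle libraries cannot check it.

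Chemokines are small secreted proteins that guide leukocytes along concentration gradients. Each binds 1 or several G protein-coupled receptors, which signal mainly through inhibitory G proteins and are switched off by receptor kinases and arrestins. Inflammatory chemokines are induced by cytokines and call neutrophils, monocytes, and effector lymphocytes to tissue, whereas homeostatic chemokines such as Ccl19, Ccl21, and Cxcl13 organise lymph nodes. In skeletal muscle, chemokines are best known from injury and regeneration, and fibroblast-like stromal cells are a main source of Cxcl12. In RNA from a whole muscle, fewer cells of a type and less RNA per cell cannot be told apart.

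Of the members, 3 rose in CAC muscle, which is 7.14% of those tested compared to 9.45% of all genes. They were the receptor Ccr1 and the ligands Ccl6 and Ccl9, both of which bind Ccr1. The calls of Ccl6 and Ccl9 were lost in 7 and 12 of 26 alternatives. The interferon-inducible pair Cxcl9 and Cxcl10 was high together in 1 CAC mouse. Ccl9 and Ccl6 are neighbours within the chemokine cluster of chromosome 11 (chr11:83572919-83578636 and chr11:83587882-83593087 in GRCm38), and Ccr1 (chr9:123962124-123968692) lies in the receptor cluster of chromosome 9 beside Ccr3 and Ccr2. The 250 bases before the RefSeq start of these 5 genes are shown (GRCm38.p6, 5′ to 3′ on the strand of the gene). They were picked because 3 were called in the same comparison and Cxcl9 and Cxcl10, which were not called, were high in the same mouse. Whether the genes moved together was not tested. Capitals mark matches, on either strand, to a kappaB form (GGGANNTTC), a STAT form (TTCNNNGAA), an interferon response form (GAAANNGAA), a PU.1 form (GAGGAA), or a TATA box (TATAAA).
Ccr1, chr9:123968693-123968942, minus strand: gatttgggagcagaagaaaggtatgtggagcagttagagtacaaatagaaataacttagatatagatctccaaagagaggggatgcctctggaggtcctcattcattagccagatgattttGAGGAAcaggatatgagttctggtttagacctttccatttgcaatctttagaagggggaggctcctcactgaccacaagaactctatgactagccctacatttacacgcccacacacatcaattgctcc
Ccl6, chr11:83593088-83593337, minus strand: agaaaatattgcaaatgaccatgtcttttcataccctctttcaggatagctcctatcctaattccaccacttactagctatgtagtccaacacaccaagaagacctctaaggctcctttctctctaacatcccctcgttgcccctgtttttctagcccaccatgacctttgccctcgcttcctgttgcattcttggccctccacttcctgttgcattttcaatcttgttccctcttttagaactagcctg
Ccl9, chr11:83578637-83578886, minus strand: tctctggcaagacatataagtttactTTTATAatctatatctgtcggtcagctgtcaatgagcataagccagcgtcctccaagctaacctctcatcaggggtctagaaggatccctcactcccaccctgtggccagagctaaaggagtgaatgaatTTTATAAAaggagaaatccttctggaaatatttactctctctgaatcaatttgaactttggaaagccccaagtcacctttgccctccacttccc
Cxcl9, chr5:92328080-92328329, minus strand: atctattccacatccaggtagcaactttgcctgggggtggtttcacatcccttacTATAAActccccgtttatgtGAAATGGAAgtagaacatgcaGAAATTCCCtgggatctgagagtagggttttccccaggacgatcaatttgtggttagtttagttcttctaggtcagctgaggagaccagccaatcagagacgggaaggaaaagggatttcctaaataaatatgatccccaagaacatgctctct
Cxcl10, chr5:92348890-92349139, minus strand: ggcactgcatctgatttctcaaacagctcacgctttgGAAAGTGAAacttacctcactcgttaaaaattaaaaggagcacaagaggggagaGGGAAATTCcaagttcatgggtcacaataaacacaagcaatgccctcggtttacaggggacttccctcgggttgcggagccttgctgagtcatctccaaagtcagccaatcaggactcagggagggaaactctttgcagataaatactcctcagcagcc

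The Cxcl10 window held 1 kappaB form (GGGAAATTC) and 1 interferon response form (GAAAGTGAA), and the Cxcl9 window held 1 of each (GAAATTCCC on the other strand, and GAAATGGAA) and a TATA box. Forms with 1 more letter at the end (C and A) matched in Cxcl10 and not in Cxcl9. The Ccr1 window held 1 PU.1 form, the Ccl9 window held 3 matches of the TATA box, of which 2 overlap in 1 stretch, and the Ccl6 window held none of the 5. RefSeq windows were matched for 41 of the 56 members, and the kappaB form stood in those of 8 (19.5%; Ccl1, Ccr3, Cxcl1, Cxcl10, Cxcl2, Cxcl3, Cxcl9, and Cxcr2) and of 3.7% of all 27025 genes. The TATA box stood in 29.3% of the members and 14.3% of all genes, the PU.1 form in 34.1% and 25.9%, the interferon response form in 19.5% and 8.18%, and the STAT form in 7.32% and 8.13%. A match describes letters, not a bound site.

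Library totals ranged from 35913190 to 61032708 counts. Levels are CPM values, which adjust counts for library size, and 3 counts, the limit that a count of 0 allows, corresponded to 0.0474 to 0.0847 CPM. Muscle fiber markers summed to between 50446 and 162345 CPM, as the tissue label states. The lowest sums were those of CAC replicates 3 and 4 (50446 and 77142 CPM). Means were 128835 CPM in NOR and 88425 CPM in CAC mice (two-sided exact permutation p = 0.0857), 118643 CPM in AM mice, and 123806 CPM in KD mice. The part of this difference in other values was not tested. Lymphoid tissue differed between libraries as well. In 5 of them (NOR replicate 1, CAC replicates 1 and 4, and KD replicates 2 and 3) the 8 B cell markers summed to at most 3.44 CPM, compared to 37.4 to 482 CPM in the other 11, and the 8 T cell markers summed to 1.80 to 10.2 CPM compared to 23.2 to 197 CPM. The T cell marker Cd3e was at 0 in all 5, and the B cell marker Ms4a1 was at 0 in 3 of them. A second set of 4 libraries was picked from these data as those with the highest summed CPM of the gene Nnt. They were CAC replicate 4, which is also among the 5, AM replicates 1 and 3, and KD replicate 1, and 2 carry each strain label. This set stood apart in 452 of 15220 genes that did not overlap with the other 12, whereas only 2 genes separated the labelled strains. Separating 4 libraries from 12 is reached more easily by chance than separating equal sets, and no chance count was made for either. The strain labels were not checked against genotype and may be wrong for some mice, so values by strain hold for the labels alone. KD replicate 3 had no counts on the Y-linked genes Ddx3y and Eif2s3y, which all other libraries expressed, and the labels mention both sexes for BALB/c mice.

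**Figure D1:**
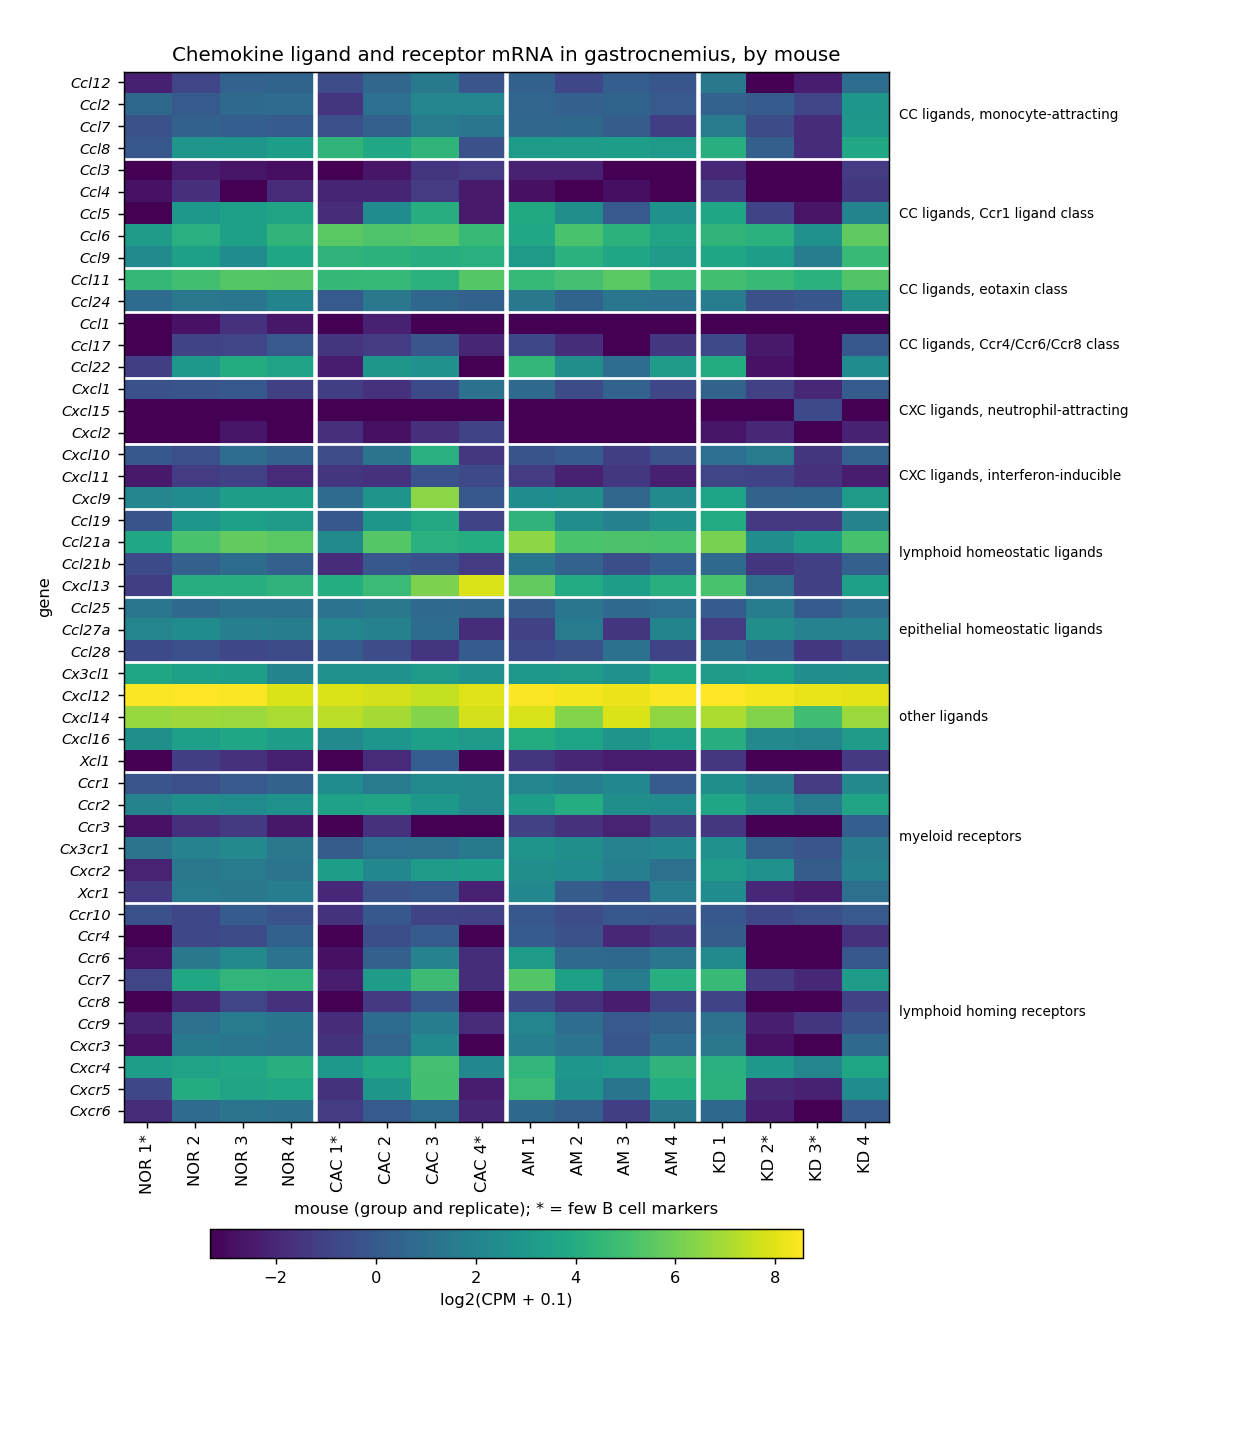
Level of 48 members that reached at least 10 counts in a library, as log2(CPM + 0.1), with genes in rows by role and the 16 mice in columns by group. Lymphoid receptors such as Ccr7 and Cxcr5 (but not Cxcr4 or Ccr10) and Ccl19, Ccl22, and Ccl5 are dark in the 5 starred libraries with few B cell markers, and Cxcl12 and Cxcl14 are bright in all.

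Per length and averaged over all groups, the homeostatic ligands Cxcl12 and Cxcl14 stood highest. Averaged over 16 libraries, FPKM (a level per length of the gene) was 84.7 for Cxcl12, which retains stem cells and leukocytes through Cxcr4, 79.5 for Cxcl14, a ligand of fibroblasts and epithelia, 41.1 for Ccl21a, 32.0 for Cxcl13, and 28.8 for Ccl11, the eotaxin that attracts eosinophils through Ccr3. Ccl8, Ccl6, Ccl5, Cxcr4, and Ccl19 followed with 19.5, 17.5, 12.3, 10.3, and 9.48 FPKM. Neighbours in this order overlapped between mice, since Cxcl12 ranged from 61.7 to 117 FPKM and Cxcl14 from 15.98 to 156 FPKM. The order also differed between groups: Cxcl14 had a higher mean than Cxcl12 in CAC and AM mice, Cxcl13 had one in CAC mice, and the Cxcl13 mean rested on CAC replicates 4 and 3 (215 and 79.1 FPKM). At the other end, 7 members never reached 10 counts in a library, and the filter on low counts kept 43 members in AM vs. CAC and 42 in each of CAC vs. NOR and KD vs. CAC.

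CAC mice were compared with NOR mice to see what the tumor changed. Differentially expressed genes (DEGs) were those that passed an edgeR false discovery rate (FDR) of 0.05 and differed by 1.5-fold or more (a ratio of 0.667 or less when lower). Of the 42 members tested, 3 rose and 0 fell, which is 7.14%, compared to 9.45% of all 14666 genes tested (4.32% higher and 5.13% lower). An unadjusted p below 0.05 was reached by 8 members, 6 of them higher, and by 29.1% of all genes (15.5% higher). The median log2 fold change was -0.12 over the members and 0.01 over all genes, so the family as a whole did not stand above the background.

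Ccr1, a receptor of neutrophils, monocytes, and macrophages, had the lowest p of the members. It stood at 0.777, 0.635, 0.908, and 1.27 CPM in NOR replicates 1 to 4 and at 5.16, 2.80, 5.03, and 4.73 CPM in CAC replicates 1 to 4. Every CAC mouse was above every NOR mouse, and the log2 fold change was 2.30 ± 0.30 (SE; edgeR adjusted p = 0.00401). In AM mice, Ccr1 stood at 4.31, 3.44, 4.51, and 0.965 CPM, and in KD mice at 5.93, 3.18, 0.316, and 4.73 CPM. Only AM replicate 4 and KD replicate 3 lay within or under the NOR range, and these were also the tumor-bearing mice with the lowest sum of the 9 neutrophil markers (18.1 and 13.5 CPM, compared to 55.1 to 408 CPM in the other 10). Their macrophage markers summed to 243 and 64.6 CPM, the lowest of the AM and of the KD mice. Among the other 10, Ccr1 did not follow the neutrophil sum throughout, with 4.31 CPM at 55.1 CPM in AM replicate 1 and 3.44 CPM at 180 CPM in AM replicate 2.

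The Ccr1 ligands did not move alike. Ccl6, a ligand made by macrophages and other myeloid cells, stood at 9.45, 18.5, 10.6, and 21.8 CPM in NOR mice and at 45.4, 39.4, 43.2, and 26.8 CPM in CAC mice. The groups did not overlap, and Ccl6 rose by 1.36 ± 0.29 on the log2 scale (edgeR adjusted p = 0.0192). Ccl9, another myeloid ligand of Ccr1, stood at 5.07, 10.7, 5.45, and 12.5 CPM in NOR mice and at 21.0, 20.0, 16.5, and 18.6 CPM in CAC mice, again without overlap, and rose by 1.17 ± 0.29 (adjusted p = 0.0306). Ccl5, a ligand of T and NK cells, did not follow them (-0.38 ± 1.58, adjusted p = 0.910), and Ccl3 and Ccl4 were at most 0.333 CPM in every library. Non-overlap between groups, found for 4 of 42 members, occurred in 23.3% of all genes.

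These results were also computed without the libraries that stood apart. Without the 5 libraries with few B cell markers, which leaves 3 NOR and 2 CAC mice, the log2 fold changes were 2.10, 1.32, and 0.97 for Ccr1, Ccl6, and Ccl9 with adjusted p of 0.0582, 0.0720, and 0.165, so the 3 calls were lost while the sizes changed little. Of the 4 libraries of the other pattern, this comparison held CAC replicate 4 alone, so leaving them out is the same fit as leaving out that mouse. The 26 alternatives count this fit under each name. In it, Ccr1 and Ccl6 stayed DEGs (2.27 and 1.51) and Ccl9 missed the limit (1.19, adjusted p = 0.0538). Ccl6 was lost without NOR replicate 3 (adjusted p = 0.0560) or CAC replicate 1 (0.0513), and Ccl9 was lost without any 1 of 7 mice (adjusted p of 0.0516 to 0.0733), NOR replicate 4 being the exception. With all 16 libraries in 1 fit, Ccl6 and Ccl9 were not called (adjusted p = 0.0946 and 0.132). In contrast, Ccr1 was called in that fit and whichever single mouse was left out. Within the labelled strains, with 2 mice against 2, the Ccr1 fold change was 2.49 in C57BL/6 and 2.19 in BALB/c, neither passing (adjusted p = 0.0785 and 0.122).

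Cxcr2, the receptor by which neutrophils follow Cxcl1, Cxcl2, and Cxcl5, did not overlap between NOR (0.129, 2.54, 2.99, and 2.30 CPM) and CAC (9.79, 4.50, 8.51, and 9.70 CPM), but its log2 fold change of 2.04 ± 0.69 did not pass the test (adjusted p = 0.0869). It passed without NOR replicate 1 (1.66, adjusted p = 0.0209) and with DESeq2 (adjusted p = 0.0131). The summed neutrophil markers were 4.51 to 38.6 CPM in NOR and 109 to 238 CPM in CAC mice (two-sided exact permutation p = 0.0286, the smallest that 4 against 4 allows), and 3 of the 9 markers (S100a8, S100a9, and Retnlg) rose. Of these markers, Ly6g was at 0 in NOR replicate 2 and in AM replicate 4. Erythroid markers stood higher too, at 3646 to 8714 CPM compared to 1002 to 1374 CPM (exact permutation p = 0.0286). The macrophage markers summed to 133 to 335 CPM in NOR and 270 to 358 CPM in CAC mice (exact permutation p = 0.114), and none of the 10 was a DEG by edgeR, with 2 at an unadjusted p below 0.05. The part of these cells in the rise of Ccr1, Ccl6, and Ccl9 was not tested.

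**Figure D2:**
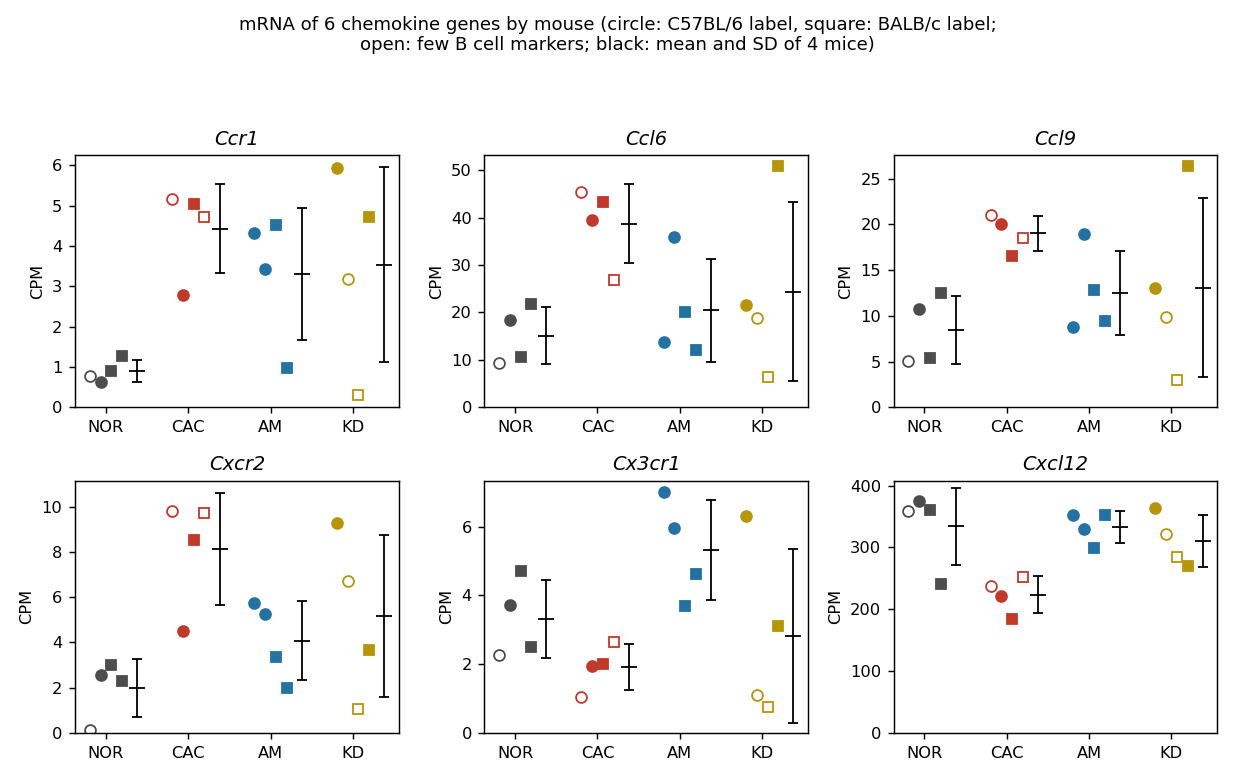
CPM of Ccr1, Ccl6, Ccl9, Cxcr2, Cx3cr1, and Cxcl12 in each mouse by group, with circles for C57BL/6 and squares for BALB/c labels, open symbols for libraries with few B cell markers, and black bars for the mean and SD of 4 mice. Ccr1, Ccl6, Ccl9, and Cxcr2 do not overlap between NOR and CAC, Cx3cr1 and Cxcl12 do not overlap between CAC and AM, and KD mice are widely spread for all but Cxcl12.

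The neutrophil-attracting ligands themselves were scarce. Cxcl1 alone of 5 passed the filter in CAC vs. NOR (0.25 ± 0.68, adjusted p = 0.855), and Cxcl2 reached at most 0.427 CPM, in CAC replicate 4. Ccl2, Ccl7, and Ccl12, which call monocytes through Ccr2, and the related ligand Ccl8 had log2 fold changes of 0.84 to 1.20, and none passed (adjusted p of 0.269 to 0.518). Ccr2 itself stood at 3.93 to 6.68 CPM in NOR and 4.73 to 12.1 CPM in CAC mice (0.73 ± 0.29, adjusted p = 0.139), and it was called higher without CAC replicate 4, the only high-Nnt library of these 8. Within CAC mice, Ccl8 had the widest range in CPM among these ligands, from 22.1 CPM in replicate 1 to 0.680 CPM in replicate 4, both with few B cell markers.

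Cxcl12 and the dendritic cell receptor Xcr1 had negative log2 fold changes in CAC vs. NOR that did not pass the test but did in some alternatives. Cxcl12 stood at 359, 376, 361, and 241 CPM in NOR mice, 237, 221, 184, and 253 CPM in CAC mice, 353, 329, 299, and 353 CPM in AM mice, and 364, 322, 285, and 270 CPM in KD mice. NOR replicate 4 alone lay within the CAC range, and its change from NOR to CAC was -0.59 ± 0.17 on the log2 scale (edgeR adjusted p = 0.0516), which passed without that mouse (-0.72, adjusted p = 0.0167). It also passed under RLE or upper-quartile scaling, at the filter of 1 CPM, with DESeq2, with the lymphoid score as a covariate, and with all 16 libraries in 1 fit, so that 7 of 26 alternatives called it. In AM vs. CAC the groups did not overlap, and the log2 fold change of 0.58 ± 0.12 had an adjusted p of 0.0322 but lay just under the fold change limit (0.585 on the log2 scale), so Cxcl12 was not a DEG, although 7 of 27 alternatives called it. In KD vs. CAC the groups did not overlap either (0.47 ± 0.16, adjusted p = 0.355). Its receptor Cxcr4 had log2 fold changes of 0.16, 0.06, and -0.42 in the 3 comparisons (adjusted p of 0.883, 0.970, and 0.883).

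The fibroblast marker sum was also lower in CAC mice, which rested on Col1a1. The 5 markers summed to 1663 to 1984 CPM in NOR, 727 to 1285 CPM in CAC, 1409 to 1893 CPM in AM, and 612 to 1948 CPM in KD mice, without overlap in CAC vs. NOR and in AM vs. CAC (exact permutation p = 0.0286 in both). Of the 5, the collagen gene Col1a1 fell in CAC vs. NOR (-3.61, edgeR adjusted p = 0.000728) and rose in AM vs. CAC (3.02, adjusted p = 0.00223), while in CAC vs. NOR Pdgfra, a receptor that defines these cells, was at -0.42 (adjusted p = 0.190), Dcn, which encodes a matrix proteoglycan, at -0.16 (adjusted p = 0.559), Lum at -1.11 (adjusted p = 0.0613), and Pi16 at -1.04 (adjusted p = 0.0682). All 5 were negative, and 3 had an unadjusted p below 0.05. Without Col1a1 the other 4 summed to 1146 to 1211 CPM in NOR, 688 to 1225 CPM in CAC, and 888 to 1319 CPM in AM mice, which overlap. In KD mice the markers and Cxcl12 parted, since KD replicates 2 and 3 had low sums (768 and 612 CPM) and Cxcl12 above every CAC mouse. The part of fibroblasts in the Cxcl12 values was not tested. Xcr1, the receptor of cross-presenting dendritic cells, stood at 0.311, 2.92, 2.58, and 3.13 CPM in NOR and 0.161, 0.716, 0.869, and 0.111 CPM in CAC mice (-2.24 ± 0.84, adjusted p = 0.114), and it was called with DESeq2, with the lymphoid score as a covariate, and, as the only member, without the 5 libraries with few B cell markers. In AM mice it stood at 4.54, 1.02, 0.696, and 3.33 CPM and in KD mice at 5.17, 0.149, 0.0930, and 2.02 CPM, overlapping with CAC mice in both. It did not pass in AM vs. CAC (2.36 ± 0.86, adjusted p = 0.154), where DESeq2 called it, or in KD vs. CAC (2.01 ± 1.24, adjusted p = 0.596). Its ligand Xcl1 was at most 1.05 CPM.

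Cxcl14 and Ccl11, also abundant, did not pass in any comparison. Cxcl14 stood at 107, 114, 108, and 132 CPM in NOR, 159, 125, 82.1, and 222 CPM in CAC, 232, 80.8, 245, and 95.8 CPM in AM, and 137, 78.7, 29.9, and 109 CPM in KD mice. Its highest values, in AM replicates 3 and 1 and CAC replicate 4, came from libraries with high Nnt. The groups overlapped, and CAC mice differed from NOR mice by 0.35 ± 0.26 on the log2 scale (edgeR adjusted p = 0.421), AM mice from CAC mice by 0.16 ± 0.42 (adjusted p = 0.870), and KD mice from CAC mice by -0.73 ± 0.46 (adjusted p = 0.606). Ccl11 ranged from 18.9 to 46.1 CPM over all mice, with log2 fold changes of -0.32, 0.20, and 0.06 in the same order (adjusted p of 0.475, 0.730, and 0.979).

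**Figure D3:**
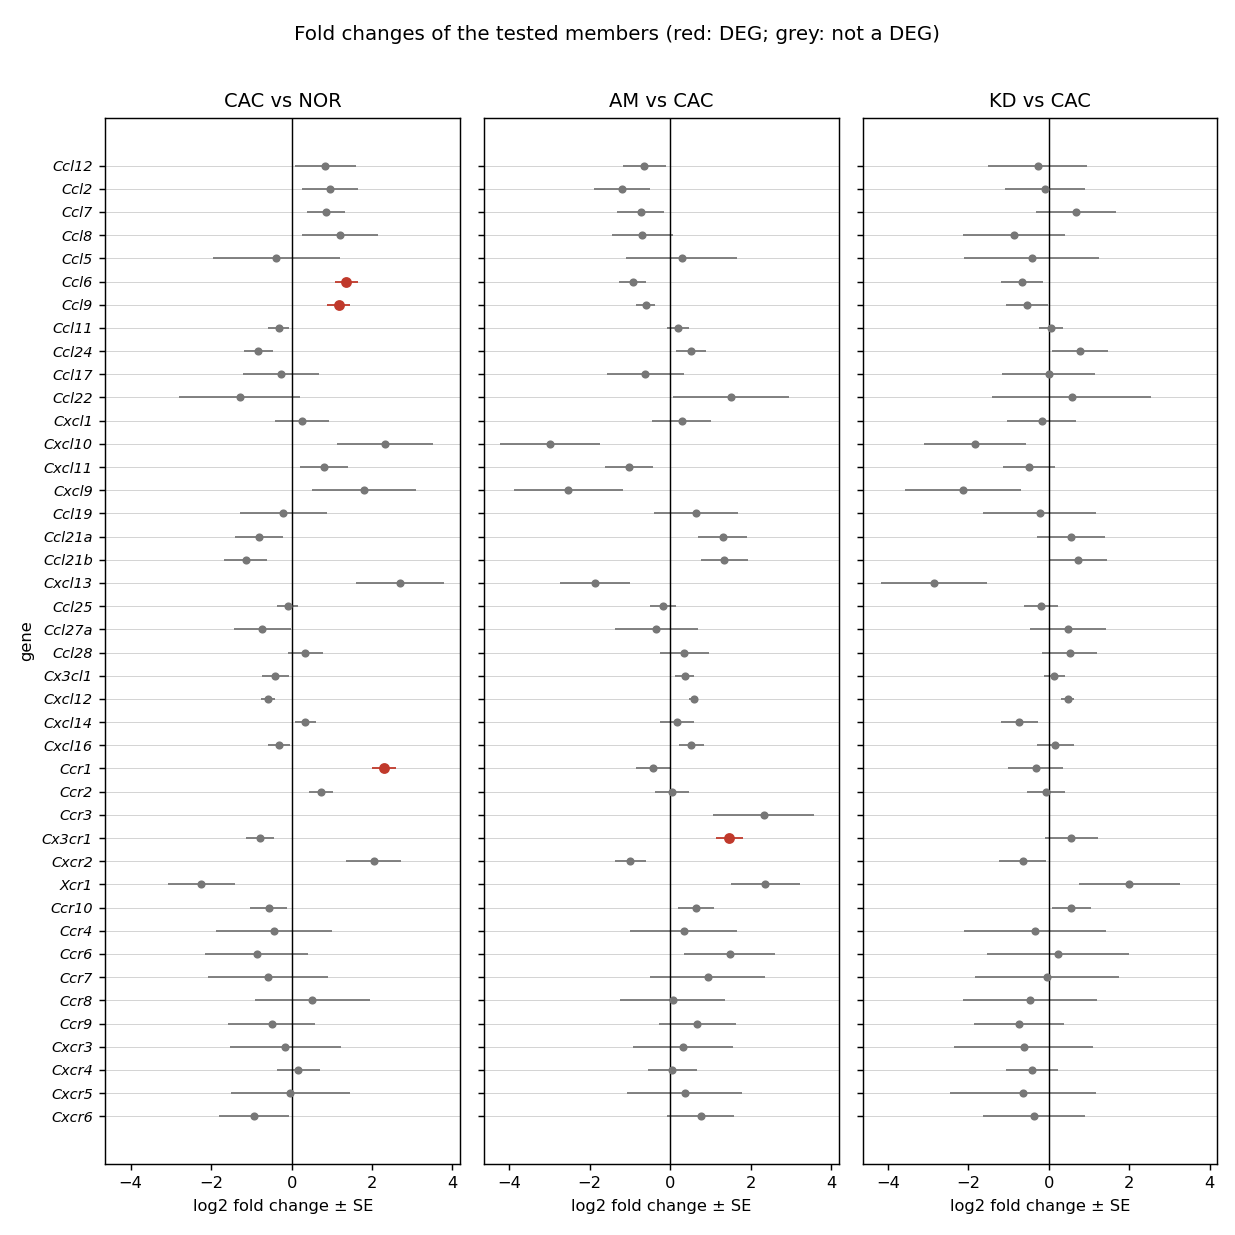
Log2 fold change with its SE for the tested members, with CAC vs. NOR at the left, followed by AM vs. CAC and then KD vs. CAC, and DEGs in red. Ccr1, Ccl6, and Ccl9 are the DEGs in the first panel and Cx3cr1 in the second, and Ccl5, Ccl22, and lymphoid receptors such as Ccr7 and Cxcr5 carry wide errors.

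AM vs. CAC addresses what amiloride changed in tumor-bearing mice. It shares its CAC mice with CAC vs. NOR and KD vs. CAC, so each comparison is given by its own values. Of the 43 members tested, 1 rose and 0 fell, or 2.33%, compared to 3.66% of all 14674 genes (1.63% higher and 2.03% lower). The 8 members with an unadjusted p below 0.05 compare to 21.7% of all genes, and the median log2 fold change was 0.29 over the members and 0.01 over all genes.

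The member that rose was Cx3cr1, the receptor of patrolling monocytes and tissue macrophages for the membrane-bound ligand Cx3cl1. It stood at 2.28, 3.73, 4.72, and 2.49 CPM in NOR, 1.03, 1.95, 2.02, and 2.66 CPM in CAC, 6.99, 5.96, 3.69, and 4.61 CPM in AM, and 6.30, 1.09, 0.763, and 3.12 CPM in KD mice. All AM mice were above all CAC mice, with a log2 fold change of 1.47 ± 0.33 (edgeR adjusted p = 0.0436), and no overlap occurred in 15.3% of all genes and in 2 of the 43 members. The call rests close to the limit: it was lost without the 5 libraries with few B cell markers (1.41, adjusted p = 0.122), without the 4 libraries of the other pattern (1.64, adjusted p = 0.155), and without any 1 of 7 mice, the exception being CAC replicate 4, with adjusted p of 0.0600 to 0.101. Within the labelled strains, the fold change was 2.13 in C57BL/6 and 0.81 in BALB/c (adjusted p = 0.177 and 0.418). Its ligand Cx3cl1 stood at 3.95 to 12.5 CPM in NOR, 6.34 to 8.34 CPM in CAC, and 6.49 to 13.2 CPM in AM mice (0.36 ± 0.23 in AM vs. CAC, adjusted p = 0.429). Cx3cr1 (chr9:119901616-120069879) overlaps other genes in the annotation, and the strand setting of the counting is not given in the sources used here.

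The 3 genes that rose in CAC muscle had lower means in AM muscle without passing the test. Ccl6 stood at 13.8, 35.8, 20.0, and 12.1 CPM in AM mice (-0.93 ± 0.34, adjusted p = 0.156), and Ccl9 at 8.83, 18.9, 12.8, and 9.44 CPM (-0.61 ± 0.23, adjusted p = 0.170). AM replicate 2 was the mouse within the CAC range for both, and without it both fell (adjusted p = 0.0484 each), while Cx3cr1 was not called. Ccr1 was at -0.42 ± 0.44 (adjusted p = 0.644). Cxcr2, which had not passed in CAC vs. NOR, was at -0.99 ± 0.37 (adjusted p = 0.170). Directly against NOR mice, AM mice had 0 DEGs among 43 members and 0 among all genes (0%), while 2 members had an unadjusted p below 0.05 compared to 9.19% of genes. These 2 were Ccr1 (1.89, adjusted p = 0.518) and Cx3cr1 (0.70). DESeq2 called 1 member, Ccr1, beside 70 of all genes.

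KD vs. CAC addresses tumors made from Rab27 knock-down cells. By edgeR, 0 of 42 members and 1 of 14593 genes (0.00685%) were DEGs, and DESeq2 called 0 members too. An unadjusted p below 0.05 was reached by 1 member, Cxcl12, and by 11.1% of all genes, and 1 member did not overlap compared to 7.29% of genes. The spread within the KD group was wide: Ccl6 stood at 21.5, 18.8, 6.42, and 50.8 CPM (-0.67 ± 0.52, adjusted p = 0.704), and Ccl9 at 13.1, 9.91, 3.03, and 26.4 CPM (-0.54 ± 0.52, adjusted p = 0.781). KD replicate 4 was above every CAC mouse for both and KD replicate 3 below every NOR mouse. Against NOR mice, KD mice had 0 DEGs among 44 members and 0% of all genes, with 1 member, Ccr1 (1.98, adjusted p = 0.999), at an unadjusted p below 0.05 compared to 3.54% of genes, and DESeq2 called 0.

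The lymphoid chemokines and receptors followed the B cell markers of a library. Of the 45 members kept across all libraries, 15 had every value in the 5 libraries with few B cell markers below every value in the other 11, compared to 3.67% of 15220 genes, and 0 had every value above (0.309% of genes). These were Ccl19, Ccl21a, Ccl21b, Ccl22, Ccl5, Ccr4, Ccr6, Ccr7, Ccr8, Ccr9, Cxcr3, Cxcr5, Cxcr6, Xcl1, and Xcr1. Ccr7, the receptor that leads T cells and dendritic cells into lymph nodes, stood at 0.0917 to 0.466 CPM in the 5 and at 3.08 to 40.9 CPM in the 11, and Cxcr5, the follicle receptor of B cells, showed 0.0948 to 0.492 CPM and 2.34 to 31.4 CPM. The Ccr7 ligands Ccl19 and Ccl21a stood at 0.298 to 0.825 CPM and 5.04 to 16.1 CPM in the 5, compared to 3.65 to 21.2 CPM and 18.4 to 93.4 CPM. The defining lymph node stroma markers summed to 0.711 to 1.12 CPM in the 5 and 9.66 to 121 CPM in the 11, most of it Glycam1. Of these 4 markers Madcam1 and Coch overlapped between the sets of libraries. None of the 10 lymphoid homing receptors was a DEG in the 3 comparisons with edgeR or DESeq2, and 0 had an unadjusted p below 0.05 with edgeR. The errors of these receptors were large, with an SE of 1.48 for Cxcr5 on the log2 scale in CAC vs. NOR. By 31-base words, 80.6% of the Ccl21a sequence and 100% of the Ccl21b sequence also occur in transcripts of other genes, and 58.8% of Ccl19, so their values may hold reads of near-identical copies.

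Cxcl13, the ligand of Cxcr5 that gathers B cells into follicles, was an exception among the lymphoid ligands. It stood at 0.362, 16.7, 16.6, and 21.1 CPM in NOR, 16.3, 27.7, 73.5, and 234 CPM in CAC, 51.8, 15.2, 10.0, and 17.4 CPM in AM, and 35.8, 1.96, 0.372, and 10.2 CPM in KD mice. Among the libraries with few B cell markers, both CAC mice (16.3 and 234 CPM) were far above NOR replicate 1 and KD replicates 2 and 3 (0.362 to 1.96 CPM), whereas Cxcr5 was at most 0.492 CPM in all 5. No comparison passed the test for Cxcl13, with log2 fold changes in CAC vs. NOR (2.69 ± 1.10, adjusted p = 0.143), AM vs. CAC (-1.87 ± 0.87, adjusted p = 0.258), and KD vs. CAC (-2.85 ± 1.32, adjusted p = 0.469). All 3 include CAC replicate 4 (234 CPM), and the KD vs. CAC value ranged from -4.87 to -0.19 over 27 alternatives.

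**Figure D4:**
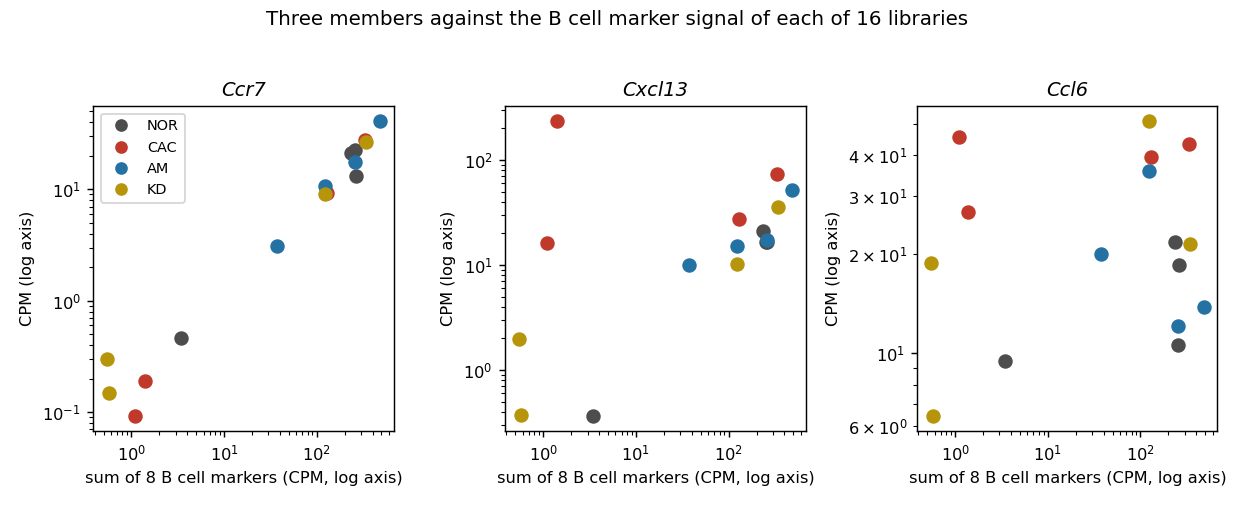
CPM of Ccr7, Cxcl13, and Ccl6 against the summed CPM of 8 B cell markers, with 1 point per library colored by group and log axes. Ccr7 is low in all 5 libraries with few B cell markers, Cxcl13 is low in 3 of them and 16.3 and 234 CPM in the CAC pair, and Ccl6 spans 6.42 to 45.4 CPM among them.

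The interferon-inducible ligands Cxcl9 and Cxcl10 were high in 1 mouse. They recruit effector T cells and NK cells through Cxcr3. In CAC mice, Cxcl9 stood at 1.67, 6.96, 90.4, and 0.822 CPM and Cxcl10 at 0.596, 2.26, 18.8, and 0.269 CPM, while in the other 12 mice Cxcl9 was 1.29 to 11.7 CPM and Cxcl10 was 0.261 to 2.76 CPM. CAC replicate 3 alone was high, and it also had the highest Cxcr3 (4.81 CPM), Xcl1 (1.05 CPM), NK cell marker sum (18.5 CPM), and Ifng (1.04 CPM, at most 0.165 CPM elsewhere). Neither was a DEG in CAC vs. NOR (1.80 ± 1.29, adjusted p = 0.404, and 2.31 ± 1.20, adjusted p = 0.242). The third ligand of this class, Cxcl11, was scarce, and CAC replicates 3 and 4 (0.684 and 0.522 CPM) lay above all other mice. In AM vs. CAC, Cxcl9 was at -2.53 (adjusted p = 0.329) and Cxcl10 at -2.99 (adjusted p = 0.203) by edgeR, and Cxcl10 was called lower by DESeq2 and with the lymphoid score as a covariate. These values and those in CAC vs. NOR include CAC replicate 3. The other 3 CAC mice, at 0.269 to 2.26 CPM of Cxcl10, overlapped with AM mice (0.358 to 0.988 CPM) and NOR mice (0.635 to 1.78 CPM). Their negative log2 fold changes in KD vs. CAC (-2.14 and -1.83) changed sign without CAC replicate 3 (0.87 and 0.58). Cxcl10 overlaps Art3 in the annotation, and 4.47% of its 31-base words occur there.

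Without overlap, 1 of 45 members was lower and 1 was higher in the 4 libraries with high Nnt than in the other 12. These 4, picked by the sum of both Nnt lines, had 44.0 to 112 CPM of Nnt (ENSMUSG00000025453), compared to 5.73 to 21.5 CPM in the other 12. On the other line with this symbol (ENSMUSG00000116207) the ranges overlapped, at 50.7 to 202 CPM and 19.1 to 60.3 CPM. Ccl27a, a skin-homing ligand, was 0.190 to 0.398 CPM in the 4 and 1.74 to 5.81 CPM in the other 12, and Cxcl1 was 1.22 to 2.05 CPM and 0.149 to 1.01 CPM. Over all genes, 1.75% were lower and 1.22% higher without overlap in these 4. Cxcl14 overlapped, at 137 to 245 CPM in the 4 (median 227 CPM) and 29.9 to 159 CPM in the other 12 (median 107 CPM). Ccl27a overlaps Il11ra1, and the larger share of its 31-base words also occurs in other genes (37.7% in Gm20878 alone), so its reads are uncertain. Since 2 of the 4 libraries are AM and 1 is CAC, group and pattern are partly confounded in AM vs. CAC.

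**Figure D5:**
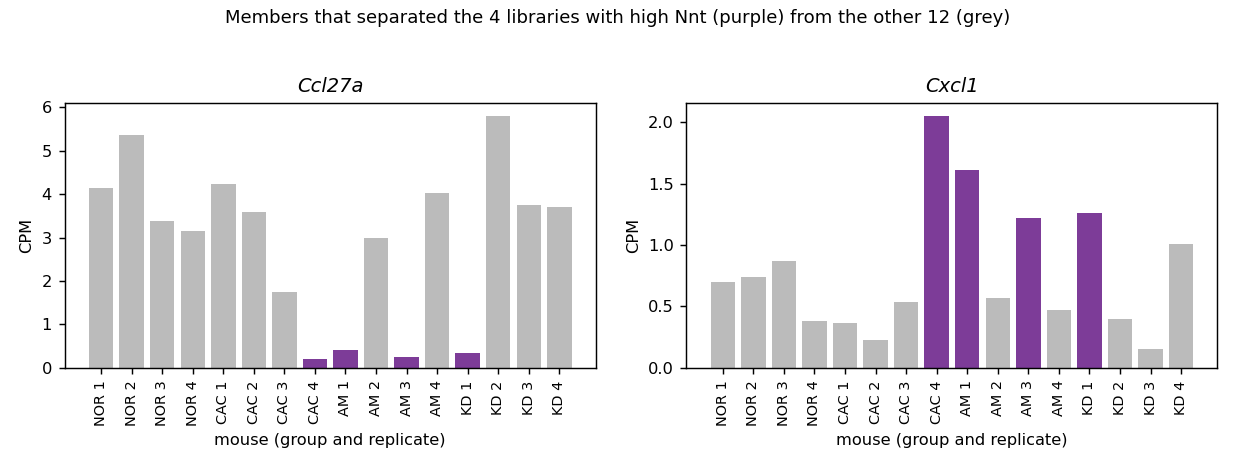
CPM of Ccl27a and Cxcl1 as bars for each of the 16 mice, with the 4 libraries with high Nnt in purple. Ccl27a is at most 0.398 CPM and Cxcl1 at least 1.22 CPM in all 4.

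No member's response was shown to differ between the labelled strains. The edgeR test of the strain interaction passed 0 members in each of the 3 comparisons, and with 2 mice per label and group it passed 0% of all genes too, so it does not show that responses were alike. An unadjusted p below 0.05 was reached by 0 of 47 members in CAC vs. NOR (4.87% of all genes), 6 of 46 members in AM vs. CAC (11.8%), and, for KD vs. CAC, 2 of 47 (5.57%). DESeq2 called 1, Cxcl13 in AM vs. CAC, whose edgeR interaction was -4.15 ± 1.09 (adjusted p = 0.339), beside 458 of all genes.

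Genes that act before and after the chemokines were read from the same fits. These lists were chosen with earlier results of these data known, so a share set beside that of all genes is no test of an excess. Of 8 tested genes of the upstream list, 5 rose in CAC vs. NOR, compared to 4.32% of all genes: Il1b (2.78, adjusted p = 0.00416), Il6ra (2.04, adjusted p = 0.00405), Il1r1 (0.72), and the tumor necrosis factor receptors Tnfrsf1a (0.61) and Tnfrsf1b (0.65). The interferon gamma receptor chain Ifngr2 had a small negative log2 fold change under the fold limit (-0.34, adjusted p = 0.0438). Il6ra, the interleukin-6 receptor, fell in AM vs. CAC (-1.65, adjusted p = 0.00762) and in KD vs. CAC (-1.72, adjusted p = 0.0443), where it was the only DEG of all genes. No gene at all was called in KD vs. CAC under RLE, upper-quartile, or total-count scaling, by limma-voom, or in 7 of 8 runs without 1 mouse, whereas DESeq2 called 340 genes and the fit of all 16 libraries 145. Ackr1, the atypical receptor by which venules and erythrocytes bind chemokines without G protein signalling, rose in CAC vs. NOR (2.31, adjusted p = 0.0133). It stood at 4.14 to 6.05 CPM in NOR and 14.7 to 56.3 CPM in CAC mice. Erythroid markers were higher in CAC mice too, but Ackr1 did not follow their sum throughout. KD replicate 2 and AM replicate 2 had the highest sums (21196 and 16085 CPM) and 16.3 and 14.6 CPM of Ackr1. AM replicate 4 was low in both (967 and 6.33 CPM). Ackr1 was highest in the libraries with high Nnt (28.6 to 56.3 CPM, at most 21.2 CPM elsewhere). These include CAC replicate 4 (56.3 CPM), with the lowest erythroid sum of the CAC mice (3646 CPM). The part of either in this rise was not tested. Ackr1 was the only DEG of 7 atypical receptors and platelet ligands. None of the 18 G proteins and effectors was a DEG in the 3 comparisons with edgeR, nor was any of 8 genes for arrestins, receptor kinases, and the G protein signalling regulators Rgs1 and Rgs2 (at most 2 and 1 of them at an unadjusted p below 0.05).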

How the data were processed

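Poly(A) mRNA was enriched by the authors from gastrocnemius RNA of 16 mice, and the submitters' processing notes name fastp, Bowtie2, HISAT2, and StringTie 1.3.1 and the builds mm9 and GRCm38. The role of each tool and the strand setting are not given in the sources used here. The deposited table holds whole-number read counts per gene for each mouse, without normalization, and FPKM values that the authors computed per gene length. FPKM served only for the order of levels between genes.

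Counts were analysed with edgeR 4.0.16 in R 4.3.3 (TMM, filterByExpr at 10 counts and 15 in total, quasi-likelihood F test, not robust) on the 8 libraries of the 2 groups compared. P-values were adjusted by Benjamini-Hochberg over all genes tested, DEGs were called at FDR 0.05 with 1.5-fold or more in either direction, and members were read from these fits. NOISeq, which the study used, was not installed. CPM used TMM library sizes of all 16 libraries, and summed markers were compared by exact permutation (two-sided). Replicates are separate mice, and over all genes together counting error was small beside their spread (chi-square per degree of freedom of at least 61.8 between libraries of a group). That value is weighted by genes with many counts and was not computed for the members, so it does not hold for members with few counts. Intervals and limits from counts of 0 cover counting error only.

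Alternatives were RLE, upper-quartile, and total-count scaling, other filters and fold change limits, DESeq2 1.42.0, limma-voom (limma 3.58.1), robust edgeR, covariates, a replicate block, all libraries in 1 fit, each labelled strain, and leaving out each mouse. Leaving out the 5 libraries with few B cell markers (at most 5 CPM in sum) or the 4 with high Nnt, and that pattern as a covariate, were chosen after seeing the data. The members and all gene lists were chosen with earlier results of these data known. Values are printed for called members, the 10 members with the highest mean FPKM, the 6 with the lowest p in each of the first 3 comparisons, the lymphoid ligands with Ccr7 and Cxcr5, and textbook partners of these. Members singled out for a library pattern or a single mouse were chosen after their values were seen. Positions and 31-base words came from GENCODE M21 (GRCm38), which matched 21905 identifiers, and sequences from RefSeq (GRCm38.p6). Motif letters were typed, and cut to 9 after a search with forms of 10. Sequence searches used Python 3.11.15 with pandas 2.3.3, and plots matplotlib 3.10.9. The values of 1 member are not reported here.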

Additional observations from a re-analysis of the deposited data

Results flagged for a closer look

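In 9 of 116 groups of 4 mice, over 29 members, 1 mouse lay far from the other 3 by Dixon's test, which chance gives in about 1 of 20 groups. CAC replicate 3 was the high one for Cxcl9 (90.4 CPM), Cxcl10 (18.8 CPM), and Xcl1 (1.05 CPM), and the same mouse had the highest Ifng (1.04 CPM) and NK cell marker sum (18.5 CPM). AM replicate 1 was the high one for the lymphoid ligands Ccl21a (93.4 CPM) and Ccl19 (21.2 CPM), and its B cell marker sum of 482 CPM was the highest of all libraries. Cxcl12 was low in NOR replicate 4 (241 CPM), Ccl2 was high in KD replicate 4 (7.34 CPM), Cxcl1 was high in CAC replicate 4 (2.05 CPM), and Ccr3 was counted in CAC replicate 2 alone of its group (0.224 CPM). The source of these values was not tested. The edgeR test of a strain interaction passed 0 members, and 0% of all genes, in each comparison, which with 2 mice per label and group does not show like responses. An unadjusted p below 0.05 was reached by 0 members in CAC vs. NOR (4.87% of all genes), 6 in AM vs. CAC (11.8%), and 2 for KD vs. CAC (5.57%). DESeq2 called 1, beside 458 of all genes in AM vs. CAC.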

How the results depend on the processing

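The count of chemokine DEGs in CAC vs. NOR was 3, with 6 by DESeq2, 5 with the lymphoid score as a covariate, 1 without the 5 libraries with few B cell markers, 0 in C57BL/6-labelled and 0 in BALB/c-labelled mice alone (2 against 2), and 1 to 4 with 1 mouse left out. Over all genes the count was 1386, with 1921 by DESeq2, 1660 with the lymphoid score, 398 without the 5 libraries, and 247 and 0 in the labelled strains. The members' count was 1 without NOR replicate 3 or without CAC replicate 1, when Ccr1 alone was called. In AM vs. CAC the count was 1, with 2 at no fold limit, under RLE or upper-quartile scaling, at a filter of 1 CPM in 4 libraries, and by limma-voom, and 4 by DESeq2. It was 0 under total-count scaling, with every gene kept, with the labelled strain or the Nnt pattern as a covariate, with all 16 libraries in 1 fit, in either labelled strain alone, and without the 5 or the 4 libraries, and 0 to 3 with 1 mouse left out (3 without CAC replicate 4, 2 without AM replicate 2). Over all genes the count was 537, with 1119 by DESeq2, 549 under total-count scaling, 517 with the Nnt pattern, 18 without the 5 libraries, and 0 without the 4 or in either strain. With the lymphoid score as a covariate 1 member was called, but the member was Cxcl10, which fell. DESeq2 gave 1 in AM vs. NOR (70 of all genes), where edgeR gave 0, and 1 strain interaction in AM vs. CAC (458 of all genes), where edgeR gave 0. KD vs. CAC and KD vs. NOR had 0 under every alternative run, where over all genes the count was at most 340 and 31 and mostly 0.

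With a replicate block the count was 2 for CAC vs. NOR (Ccr1 and Ccl9, not Ccl6) and 0 for both AM vs. CAC and KD vs. CAC. Over all genes the block called 1140 in CAC vs. NOR and 0 in both AM vs. CAC and KD vs. CAC. Mice with the same number share only the number: the correlations of their deviations from the group means ranged from -0.67 to 0.63, so the block is no better estimate.

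In KD vs. CAC some log2 fold changes that were not called changed sign. Cxcl10 was 0.30 with the replicate block, 0.73 in C57BL/6-labelled mice, and 0.58 without CAC replicate 3, Cxcl9 was 0.62 in C57BL/6-labelled mice and 0.87 without CAC replicate 3, and Cxcl14 was 0.22 without the 5 libraries with few B cell markers. Over single genes, 411 values kept their direction and side of the limit, 40 lost their call, and 22 gained one. With 1 mouse left out, Cxcl9 ranged from -2.78 to 0.87 and Cxcl10 from -2.28 to 0.58. The cause was not tested beyond what leaving out a mouse shows. Depth was not varied, and 7 members stayed under 10 counts in every library.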
